A study of Mus musculus with 12 samples.

Results

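Trp63 and Trp73 encode p63 and p73, transcription factors of the p53 family. The regions of 11 ChIP-seq region lists from mouse pancreatic cancer lines were gathered in fixed windows of mm9 around both genes, on chromosome 16 from 25.60 to 26.00 Mb for Trp63 and on chromosome 4 from 153.38 to 153.57 Mb for Trp73. A region was a member where at least 1 bp lay in a window, which gave 83 regions at Trp63 and 49 at Trp73, 132 of the 313566 regions in all lists. The lists covered the female KDM6A-KO line (H3K4me1, MLL4 and KDM6A), the female KDM6A-WT line (these and H3K4me3, H3K27ac and H3K27me3), and H3K4me1 of the male KDM6A-KO and male KDM6A-WT lines. KDM6A removes methyl groups from H3K27me3 and works with MLL4, the methyltransferase KMT2D that places H3K4me1. All lines, those of the WT genotype too, were described as derived from pancreatic tumours of mice lacking Kdm6a, were grown in F12/DMEM with EGF and were left untreated. Each group was 1 library with no replicate check, so no test between KO and WT was possible within a sex and values are set side by side. Over both sexes H3K4me1 gives 2 KO and WT pairs, a pairing by sex added after seeing the data. For these an exact sign-flip permutation test cannot go below a two-sided p of 0.5.

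Each gene is read from a pair of promoters. The upstream one gives long isoforms that carry the transactivation domain (TAp63, TAp73), and the internal one gives short isoforms without it (deltaNp63, deltaNp73). In squamous and basal epithelia deltaNp63 maintains the basal cell program, and in pancreatic cancer it is a known marker of the squamous or basal-like subtype. p73 is best known for its part in multiciliated cells and in neurons. H3K4me1 marks enhancers, H3K27ac active elements, H3K4me3 promoters in use or held ready, and H3K27me3 is laid down by Polycomb complexes at silent genes.

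Both promoters of Trp73 are shown because H3K27me3 and H3K4me3 are known to gather at CpG-rich starts, and the start points of this gene differ in that. The promoter set used here held no entry for Trp63, so its promoters could not be shown. The sequences are the 250 bases before each start, read 5′ to 3′ on the minus strand of chromosome 4, from RefSeq on GRCm38.p6, with every CpG in capitals. Their positions are in that build and were not set against the mm9 regions.
Trp73 upstream start, chr4:154139876-154140125: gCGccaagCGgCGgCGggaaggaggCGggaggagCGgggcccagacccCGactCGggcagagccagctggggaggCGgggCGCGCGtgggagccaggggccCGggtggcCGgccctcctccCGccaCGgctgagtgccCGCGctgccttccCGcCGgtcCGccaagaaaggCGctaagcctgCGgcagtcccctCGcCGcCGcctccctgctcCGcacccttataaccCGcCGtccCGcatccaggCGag
Trp73 internal start, chr4:154097174-154097423: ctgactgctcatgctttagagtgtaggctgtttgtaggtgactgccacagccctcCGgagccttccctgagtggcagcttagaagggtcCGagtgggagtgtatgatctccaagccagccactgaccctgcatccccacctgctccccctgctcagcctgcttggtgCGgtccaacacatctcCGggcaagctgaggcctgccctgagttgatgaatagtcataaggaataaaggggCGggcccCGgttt
The upstream stretch held 31 CpGs at 77.2% GC, more CpGs than 94.8% of 32851 RefSeq promoters of this length. The internal stretch held 6 CpGs at 58.4% GC, equal to the median promoter, which had 6 CpGs. Neither held TGANTCA (the AP-1 letters), CACGTG (an E-box) or TATAAA on either strand; of all promoters, 6.75%, 6.02% and 12.4% held them, in that order.

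At Trp63 the H3K4me1 regions covered more of the window in both KO lines than in the WT line of their sex. The female KO list covered 98.2 kb of the 400 kb with 21 regions, and the female WT list 30.4 kb with 15 regions. The male KO list covered 71.0 kb with 20 regions, and the male WT list 56.0 kb with 18 regions. The ratios of covered length, KO over WT, were 3.23 in the female and 1.27 in the male lines. Over all chromosomes the same ratios were 0.671 and 0.759, and on chromosome 16 they were 0.701 and 0.846, so the window ran against its own chromosome in both sexes. KO minus WT averaged 41.4 kb over the 2 pairs and was positive in both, with p = 0.5, the smallest value the exact test allows. Of the 4 H3K4me1 lists, female KO held the fewest reads in its regions, 6639207, and male WT the most, 14411335.

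**Figure D1:**
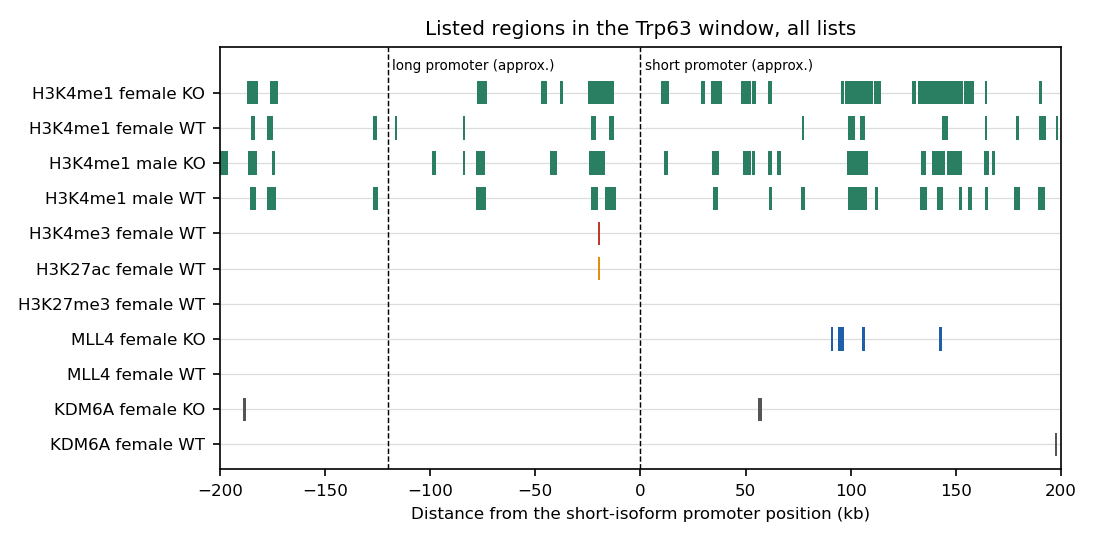
Regions of the 11 lists in the Trp63 window, each drawn to scale as a bar against distance in kb from the short-isoform promoter position. Dashed lines mark the approximate promoter positions. H3K4me1 regions of the KO lines are wide on the right side of the window, from about 100 to 150 kb, and the H3K27me3 and MLL4 WT rows are empty.

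As a share of the window, H3K4me1 lay over 24.6% in female KO and 7.60% in female WT, where the whole lists covered 5.98% and 8.90% of all chromosomes. In the male lines it lay over 17.8% in KO and 14.0% in WT, against 7.65% and 10.1% over all chromosomes. The female KO list was thus 4.11 times as dense here as over the genome and the female WT list 0.854 times. The male WT list, at 1.39 times, was also above its genome share, so female WT was the only H3K4me1 list of the 4 below it.

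**Figure D2:**
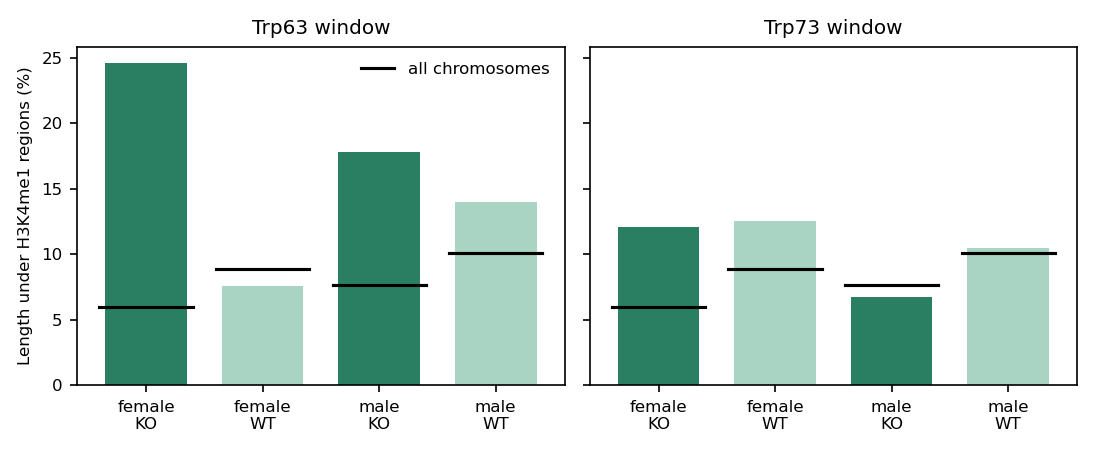
Percent of each window under H3K4me1 regions in the female KO, female WT, male KO and male WT lists, 1 library each. Black lines give the percent of all chromosomes that the same list covers. At Trp63 the bars read 24.6%, 7.60%, 17.8% and 14.0%, and at Trp73 12.1%, 12.5%, 6.74% and 10.5%.

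For comparison, all chromosomes were divided into 5798 tiles of 400 kb that held any H3K4me1. The female KO minus WT difference was 16.9 percentage points in the Trp63 window, against a tile median of -1.0, and 12 tiles reached at least that difference. The male difference was 3.75 points against a tile median of -1.15, and 473 tiles, 8.16%, reached it. KO exceeded WT in 24.0% of the tiles in the female lines, in 34.5% in the male lines and in 12.2% in both. These ranks describe the lists and are no test.

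**Figure D3:**
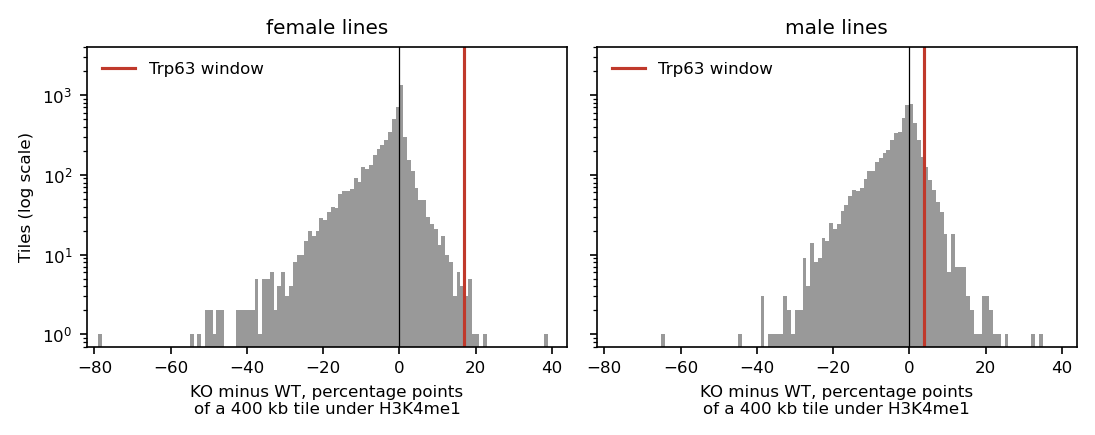
Number of 400 kb tiles, on a log scale, by the difference in percent length under H3K4me1 between KO and WT, for the female and the male lines. The red line is the Trp63 window, at 16.9 points in the female and 3.75 points in the male lines.

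The excess in KO ran along most of the window. In blocks of 50 kb, KO covered more than WT in 7 of 8 blocks in the female lines and in 6 of 8 in the male lines. It was widest from 25.90 to 25.95 Mb, at 33.8 kb in female KO and 7.20 kb in female WT, and at 21.2 kb in male KO and 15.6 kb in male WT. From 25.80 to 25.85 Mb, just beyond the short-isoform promoter position, female KO had 12.8 kb and female WT had no region, while male KO had 6.20 kb and male WT 2.40 kb. The block from 25.65 to 25.70 Mb, around the long promoter, went the other way: neither KO list had a region there, female WT had 2800 bp and male WT 2000 bp.

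**Figure D4:**
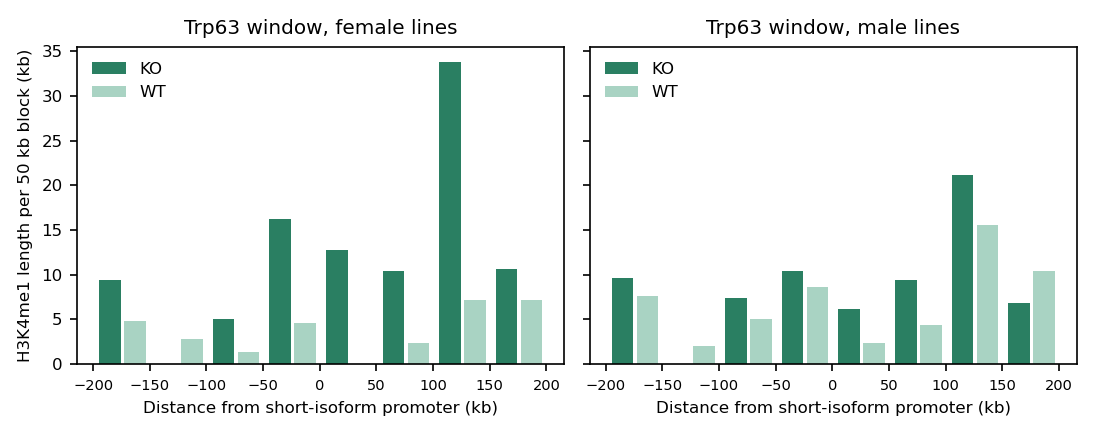
Length in kb under H3K4me1 regions in blocks of 50 kb across the Trp63 window, KO dark and WT light, against distance from the short-isoform promoter. The block 100 to 150 kb beyond it holds 33.8 kb in female KO and 7.20 kb in female WT, and 21.2 kb in male KO and 15.6 kb in male WT.

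The leading H3K4me1 regions of female KO by reads were broad. The region on chromosome 16 from 25932001 to 25953400 spanned 21.4 kb with 1007 reads, and that from 25897401 to 25910400 spanned 13.0 kb with 1004 reads; each held more reads than 98.3% of its list. A region of 12.4 kb from 25775201 to 25787600, upstream of the short-isoform promoter position, had 633 reads. The next in order were 25833401 to 25838600 with 214 reads and 25722201 to 25727200 with 210 reads. Reads rank regions within a list and are not levels between lists, since the depth of the libraries was not given.

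In female WT, the same stretches held short regions. They were picked as the leading regions of female KO, and the first and second below have its exact borders. There the other lists could only equal female KO or fall short of it, so that gap is no evidence of a difference. Over 25932001 to 25953400 the merged H3K4me1 length was 21400 bp in female KO and 2600 bp in female WT, and 16000 bp in male KO and 7800 bp in male WT. Over 25897401 to 25910400 it was 13000 bp in female KO and 6000 bp in female WT, and 9600 bp in male KO and 8800 bp in male WT. Over 25775201 to 25788200 it was 12400 bp in female KO and 4600 bp in female WT, and here male KO was the lower of the male pair, with 7400 bp against 8600 bp in male WT. The 5 female WT regions with the most reads ran from 158 reads at 25898601 to 25902200, through 116, 108 and 102, to 99 reads at 25614801 to 25616600, and none was longer than 3600 bp. The top region of male KO had 537 reads, at 25898401 to 25908000, and that of male WT 583 reads, at 25898801 to 25907600, nearly the same place.

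Regions listed in KO alone made up a larger share here than in the whole list in both sexes. The intervals below run over neighbouring regions of the same library, which are not independent replicates. They are therefore no test of this share, and the difference between the sexes was not tested. The count of KO regions without a WT region was added after seeing the data, while that of WT regions without a KO region was planned. In female KO, 14 of 21 regions had no WT region over them, 66.7% [95% exact binomial interval 43.0 to 85.4, counting error only], where the whole list gave 23.4%. In male KO it was 9 of 20, 45.0% [23.1 to 68.5], where the whole list gave 25.4%, a value inside the interval. In the other direction, 6 of 15 female WT regions had no KO region, 40.0% [16.3 to 67.7], against 51.1% of the whole list. For male WT it was 7 of 18, 38.9% [17.3 to 64.3], against 42.0%, and both intervals hold the value of the whole list. With neighbours within 5 kb merged, 8 of 15 female KO and 5 of 14 male KO regions had no WT counterpart, where the whole lists so merged gave 19.9% and 23.6%. Among regions at or above the median reads of their list it was 6 of 9 in female KO and 4 of 9 in male KO, where the whole lists so reduced gave 26.7% and 28.9%.

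By reads, the leading regions of female KO alone were 25833401 to 25838600 with 214 reads, 25722201 to 25727200 with 210 reads and 25911001 to 25914400 with 157 reads. All of these were listed in male WT too, and the first and second in male KO. The leading regions of male KO alone were 25598401 to 25603800 with 219 reads, 25848801 to 25852800 with 171 reads and 25757201 to 25760200 with 89 reads. Both the first and second of these met a region of female KO.

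When the 4 H3K4me1 lists were merged, the Trp63 window held 31 regions. Of these, 4 were in both KO lists and in no WT list, which is 12.9% here and 2.16% over all chromosomes. They lay at 25598401 to 25603800, 25809801 to 25813600, 25848001 to 25852800 and 25853001 to 25855000. The first crosses the left border of the window, and its female KO region had 26 reads, more than 0.488% of that list. Those from 25848001 and from 25853001 are close neighbours, and at the latter male KO had 37 reads, more than 2.42% of its list. The last 3 lie to the right of the short-isoform promoter position. At 25848001 to 25852800, the widest of these 3, female KO had 125 reads and male KO 171 reads. A further 3 merged regions were in every list but female WT, 9.68% here and 3.06% over all chromosomes.

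Both WT lists and neither KO list held 3 merged regions, 9.68% here and 12.0% over all chromosomes. They lay at 25673001 to 25675000, 25876601 to 25878400 and 25977801 to 25980400. The first is the region closest to the long promoter on its left side, with 108 reads in female WT and 96 reads in male WT. All 4 lists held 6 merged regions, 19.4% here and 24.0% over all chromosomes.

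At the promoters themselves few lists had a region. The positions are known here only to the nearest 10 kb, so regions within 10 kb were counted. At the long promoter, near 25.68 Mb, neither KO list had a region, and the nearest H3K4me1 lay 42.2 kb away in female KO and 21.0 kb away in male KO. Female WT had 2 H3K4me1 regions there and male WT 1; the closest was that of female WT at 25683401 to 25684400, with 31 reads. At the short-isoform promoter, near 25.80 Mb, female KO had 1 region, 9.80 kb away with 99 reads, and the other lists had none. H3K4me1 of male KO, female WT and male WT came next, at 11.4, 12.4 and 11.8 kb, and within 20 kb 6 lists had a region, H3K4me3 and H3K27ac of female WT among them.

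Active marks were nearly missing from the Trp63 window in female WT, the line in which they were listed. H3K4me3 had 1 region of 800 bp at 25780001 to 25780800, with 30 reads, and H3K27ac 1 region of 1000 bp at 25779801 to 25780800, with 29 reads. They overlap, 19.2 kb before the short-isoform promoter position, and both are among the weakest of their lists, with more reads than 1.75% and 1.16% of the regions. H3K4me1 of female KO and male KO covered this place, that of male WT ended at its left edge, and in female WT it lay in a gap between 2 H3K4me1 regions. H3K27me3 had no region in the window: the nearest were 1666 kb to the left and 3478.2 kb to the right of its borders. Of the tiles of this width that held any H3K4me1, 61.4% held some H3K27me3. By length, 92.2% of the window carried none of the 4 marks in female WT, against 79.8% of all chromosomes, 7.60% carried H3K4me1 alone and 0.250% an active mark. The state of H3K27ac, H3K4me3 and H3K27me3 in the KO lines was not analysed here.

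MLL4 was listed in the Trp63 window in female KO alone, with 4 regions over 7.20 kb against none in WT. They lay between 25890601 and 25943400, at the right side of the window. The block from 25.90 to 25.95 Mb, where H3K4me1 of female KO was widest and covered 67.6% of the length, held 2 of them. The block from 25.85 to 25.90 Mb, with 10.4 kb of that H3K4me1, held the other 2, the strongest among them. The strongest, 25893801 to 25897000, had 72 reads and overlapped H3K4me1 of female KO only. The regions at 25905201 to 25906600 and 25942001 to 25943400, with 52 and 40 reads, overlapped H3K4me1 of both KO lines, the first also of both WT lines and the second also of male WT. The region at 25890601 to 25891800, with 33 reads, met no other list. The share of all MLL4 regions that overlap H3K4me1 was not determined, so these overlaps have no baseline. Listing in KO alone was the usual case for MLL4, with 95.2% of the 13152 regions of the KO list, and on chromosome 16 the KO list held 244 MLL4 regions and the WT list 45.

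KDM6A had 2 regions in female KO and 1 in female WT, and none was shared. The KO regions, 25856001 to 25857800 with 40 reads and 25610801 to 25612200 with 38 reads, met no region of any other list. Chromosome 16 held 92 KDM6A regions in KO, the line labelled as lacking the protein, and 60 in WT. The WT region, 25997201 to 25998200, had 34 reads, overlapped H3K4me1 of female WT and lay at the right border of the window. Regions without a counterpart made up 95.6% of the KDM6A list of KO and 91.0% of that of WT.

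At Trp73 the window was marked by H3K27me3. In female WT, this mark had 10 regions over 59.0 kb, 31.1% of the 190 kb, where the whole list covered 10.5% of all chromosomes. Of 11005 tiles of this width that held any H3K4me1, 14.9% held at least as much H3K27me3. H3K27me3 alone lay over 54.8 kb, or over 34.2 kb with regions at or above the median reads of each list. The broadest region, on chromosome 4 from 153452601 to 153467000, spanned 14.4 kb with 246 reads, and the one with the most reads, 268, was the 7000 bp from 153509201 to 153516200. In order of reads, 153543001 to 153548800 with 191, 153414601 to 153424000 with 146 and 153476801 to 153481000 with 88 followed.

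**Figure D5:**
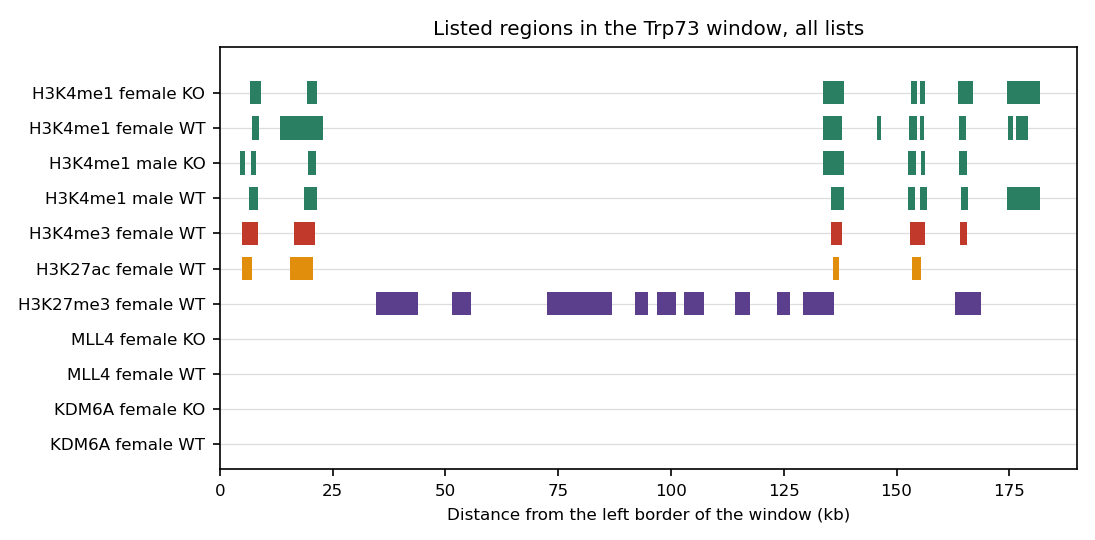
Regions of the 11 lists in the Trp73 window, drawn to scale against distance in kb from its left border. H3K27me3 bars fill the middle of the window, H3K4me1, H3K4me3 and H3K27ac regions stand at its sides, and the MLL4 and KDM6A rows are empty.

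Between the active ends of the window lay a stretch with H3K27me3 and nothing else. From 153402801 to 153513600, 111 kb, none of the 4 H3K4me1 lists had a region, nor had H3K4me3, H3K27ac, MLL4 or KDM6A. H3K27me3 of female WT lay over 50.6 kb of it, 45.7%, in 9 regions. The longest stretch without H3K4me1 at Trp63 was 45.2 kb, from 25627801 to 25673000, and no list had a region in it. In the RefSeq gene order Trp73 stands between Ccdc27 and Wrap73, with Smim1 and Lrrc47 before and Tprgl and Megf6 after them, and Trp63 stands between Tprg and P3h2. No mm9 annotation was at hand, so it was not determined which regions lie in these neighbours.

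At its right end the H3K27me3 region of 153509201 to 153516200 ran into an active one. H3K4me3 of female WT spanned 153515401 to 153518000 with 549 reads and H3K27ac 153516001 to 153517200 with 64 reads. H3K4me1 was listed across this border in all lines, over 4800 bp in female KO and 4000 bp in female WT, and over 4800 bp in male KO and 3000 bp in male WT. A second meeting of repressive and active marks lay at 153543001 to 153548800, where the H3K27me3 region held H3K4me3 at 153544001 to 153545600, with 144 reads, and no H3K27ac. In sum 2.40 kb, 1.26% of the window, carried H3K27me3 together with H3K4me3 or H3K27ac, against 0.262% of all chromosomes; with regions at or above the median reads of each list it was 0.800 kb. Active marks without H3K27me3 lay over 14.2 kb, 7.47% of the window against 4.81%.

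Most H3K4me1 regions at Trp73 were listed in all 4 lines. Female KO covered 23.0 kb with 7 regions and female WT 23.8 kb with 9, a ratio of 0.966, where chromosome 4 as a whole gave 0.548. Male KO covered 6.74% of the window and male WT 10.5% with 7 regions each, a ratio of 0.640, where chromosome 4 gave 0.725. With each pair of lists reduced to the shorter one's number of regions, by reads, KO minus WT turned from -0.800 kb to 6.80 kb in the female lines. In the male lines it became -0.600 kb. That reduction shortens WT alone, so KO minus WT could only rise. Of the 9 merged regions, 6 were in all 4 lists, 66.7% here and 24.0% over all chromosomes. None of the 7 female KO regions lacked a WT counterpart, with an exact interval of 0 to 41.0%, against 23.4% of the whole list. In male KO 1 of 7 did, with an interval of 0.361 to 57.9%, against 25.4%. Both intervals hold the value of the whole list. In the lists reduced to the shorter one's number, where this count could only rise, 4 of 7 female KO and 5 of 7 male KO regions lacked one. The whole reduced lists gave 39.3% and 34.1%. In the full lists, 1 of 9 female WT regions lacked a KO counterpart, with an interval of 0.281 to 48.2%, against 51.1% of the whole list. For male WT it was 1 of 7, with an interval of 0.361 to 57.9% that holds the 42.0% of the whole list. Neighbouring regions are not replicates, so these intervals are no test.

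At 2 places, chosen after their values were seen, the lines stood apart. At 153393401 to 153402800, left of the H3K27me3 stretch, H3K4me1 was 2400 bp long in female KO and 9400 bp in female WT, with 63 and 569 reads. In the male lines it was 1600 bp in KO and 3000 bp in WT, with 44 and 94 reads, so by length female WT stood above the other 3 lists. H3K4me3 and H3K27ac of female WT overlapped this place with 343 and 147 reads. At 153554401 to 153561800, at the right side of the window, H3K4me1 was 7400 bp long in female KO and 3800 bp in female WT. Male KO had no region there and male WT had 7400 bp with 345 reads, more than 84.5% of its list.

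MLL4 and KDM6A had no region in the Trp73 window in either female line. Chromosome 4 held 276 MLL4 regions in KO and 76 in WT, and 66 KDM6A regions in KO and 84 in WT. A missing region says only that reads did not pass the threshold of the list.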

How the data were processed

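ChIP-seq libraries of KDM6A-KO and KDM6A-WT lines, 12 in all, were labelled by antibody, sex and genotype; the library named as input and IgG is not used here. Each library but the input had its own region list. Bowtie 1.1.2, SICER 1 and the build mm9 are named without a role in the submitters' processing notes. The authors deposited a whole number per region, taken as a raw read count from its values, since no header names it. The reads in listed regions numbered 108165 to 17526099 per list, and 6639207 to 14411335 for H3K4me1. Total depth, control and threshold are not given in the sources used here, so counts rank regions within a list. An overlap of 1 bp or more with a region of the other genotype made a region shared. The members and lists were chosen with earlier results of these data known. Where a list had over 10 regions in a window, the 5 with the most reads were named, and for regions of 1 genotype the 3 with the most. Covered lengths were clipped at the window borders, and merged regions in 1 window joined overlapping regions of the 4 H3K4me1 lists. Tiles started at the first listed region of a chromosome. Chromatin states were read in steps of 200 bp. Intervals are exact Clopper-Pearson at 95% over regions, which are not replicates. Positions count from 1. Overlaps were computed with Python 3.11.15, numpy 2.4.6 and scipy 1.17.1 and checked against bedtools 2.31.1. On simulated data made from the region lengths of H3K4me1 in female WT, 16801 of 16801 planted overlaps were recovered. This checks the overlap code alone and not the calling of regions. Figures were drawn with matplotlib 3.10.9.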

Additional observations from a re-analysis of the deposited data

Results flagged for a closer look

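In 3 blocks of up to 50 kb the KO minus WT difference in H3K4me1 length had opposite signs in the female and male lines. With 1 library per group, this was not tested. At Trp63, from 25.95 to 26.00 Mb, it was 3.40 kb in the female and -3.60 kb in the male lines. At Trp73, from 153.48 to 153.53 Mb, it was -0.200 kb in the female and 1.80 kb in the male lines. From 153.53 to 153.57 Mb at Trp73 it was 5.20 kb in the female and -7.80 kb in the male lines, where the region at 153554401 to 153561800 was missing from the male KO list.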

How the results depend on the processing

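Replicate numbers gave no pairing, because the groups share number 1 alone. Pairing H3K4me1 by sex, added after seeing the data, gave 2 pairs, whose lines the labels match by sex only. The exact sign-flip permutation p was 0.5, the smallest possible, at Trp63 and at Trp73, where KO minus WT averaged -4.00 kb. Of 66 alternative values, 39 lay within a wide tolerance (counts within 1.5 times, lengths within a 95% interval over 200 bp steps, which are not independent), 26 outside it and 1 changed sign; those for KO regions without a WT counterpart were added after seeing the data. The excess of H3K4me1 length at Trp63 in KO kept its direction under the alternatives that could have turned it. With regions at or above the median reads of their list it was 60.8 kb in the female and 7.60 kb in the male lines. With widened windows it was 71.0 and 14.8 kb, a weak check since these hold the whole main window. Lists reduced to the shorter one's number gave 81.8 and 22.4 kb, but that run shortens WT alone and could only enlarge the excess. At Trp73 the female difference of -0.800 kb became 6.80 kb, and the male one of -7.20 kb became -0.600 kb, with each pair of lists reduced to the shorter one's number, which shortens WT by construction. With regions at or above the median reads of their list these became -4.00 kb and -2.60 kb, and the male Trp63 difference 7.60 kb.

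Lists reduced to the shorter one's number trim WT alone, so KO regions without WT counterpart could only rise and WT regions without KO counterpart only fall. At Trp73 such KO regions numbered 4 of 7 in female and 5 of 7 in male, against 39.3% and 34.1% of the whole reduced lists. Female WT regions without KO counterpart numbered 1 of 6 at Trp63 and 0 of 3 at Trp73. With regions at or above the median reads of their list, KO regions without WT counterpart at Trp63 numbered 6 of 9 in female and 4 of 9 in male. The whole lists so reduced gave 26.7% and 28.9%. Female WT regions without KO counterpart there numbered 2 of 5. Active marks then lay over 0 kb at Trp63, H3K4me1 alone over 13.4 kb and no mark over 387 kb; at Trp73, active marks with H3K27me3 lay over 0.800 kb, H3K27me3 alone over 34.2 kb and no mark over 132 kb. With neighbours within 5 kb merged, KO regions without WT counterpart at Trp63 numbered 8 of 15 in female and 5 of 14 in male. Male KO at Trp73 had 0 of 5, and the whole lists so merged gave 19.9% in female and 23.6% in male KO. Male WT regions without KO counterpart at Trp63 numbered 4 of 13. With windows widened by 50 kb at each side, Trp73 regions of KO without WT numbered 2 of 10 in female and 2 of 9 in male, against 23.4% and 25.4% of the whole lists. Those of WT without KO numbered 3 of 13 in female and 3 of 11 in male, against 51.1% and 42.0%. Under at least 50% coverage of a region, Trp73 had 1 female KO region without WT and 2 female WT regions without KO. Within 20 kb of the short-isoform promoter of Trp63, 6 lists had a region in place of 1. Where no construction is named, the cause was not tested.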
